A study of Mus musculus with 36 samples.

Results

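The 5 microRNAs (miRNAs) described here are the mouse mature arms mmu-miR-223-3p, mmu-miR-223-5p, mmu-miR-142a-3p, mmu-miR-142a-5p and mmu-miR-155-5p, written below without the species prefix, which come from 3 genes active in blood-derived cells. They were chosen by name from the count table of the series, which names 1966 mature miRNAs, and each had a single line there. Small RNA was sequenced from epididymal white adipose tissue (eWAT) and from liver in 36 libraries, with 6 libraries in each of the groups HFLF, HF and LF of each tissue. All samples are labelled as WT male C57BL/6 mice of the F1 generation, aged 24 weeks. Chow was given until week 6, and the specific diet over the following 18 weeks. The diet tags read HFLFD, HFD and LFD, but the treatment text of every sample names LFD alone. The labels thus leave unstated whether a group is named for the mouse's own diet or its father's, and the groups are called HFLF, HF and LF only. Beyond the sample titles nothing states that replicates were separate mice, and the p-values therefore rest on a spread among libraries that may be technical.

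miRNAs are short RNAs that guide Argonaute proteins to messenger RNAs through the seed, the bases near their 5′ end, and so lower the output of those messengers. miR-223 is made in myeloid cells, above all neutrophils, monocytes and macrophages, where it limits granulocyte production and inflammatory activation. miR-142 is made in nearly all blood-derived cells and is used as a general leukocyte mark. miR-155 is induced in activated macrophages, dendritic cells, B cells and T cells, where it targets the signalling inhibitors Socs1 and Inpp5d. Liver holds resident Kupffer cells, and eWAT holds a macrophage population known to grow in obesity. A whole-tissue library reports the summed RNA of all cells, so more cells of a type and more RNA per cell cannot be told apart.

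The mature sequences are shown because each arm has a seed of its own. They are the RefSeq sequences on GRCm38.p6, printed 5′ to 3′ with the seed, bases 2 to 8, in capitals.
miR-223-3p: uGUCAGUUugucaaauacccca
miR-223-5p: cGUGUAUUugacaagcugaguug
miR-142a-3p: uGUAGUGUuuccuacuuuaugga
miR-142a-5p: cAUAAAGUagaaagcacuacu
miR-155-5p: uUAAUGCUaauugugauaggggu
The 5 arms carry 5 different seeds, and no other name in the RefSeq table used here, which holds 1679 mature names, shares any of them. They are 21 to 23 bases long. They lie on the plus strand at chrX:96242884-96242905 (miR-223-3p), chrX:96242842-96242864 (miR-223-5p), chr11:87756903-87756925 (miR-142a-3p), chr11:87756867-87756887 (miR-142a-5p) and chr16:84714143-84714165 (miR-155-5p).

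The hairpins of miR-223 and miR-142a are shown because the balance between their arms is one of the measurements. The mature arms are in capitals, the 5p arm first.
Mir223: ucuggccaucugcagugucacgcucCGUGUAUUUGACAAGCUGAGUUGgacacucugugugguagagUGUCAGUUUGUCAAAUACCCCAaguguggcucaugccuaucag
Mir142: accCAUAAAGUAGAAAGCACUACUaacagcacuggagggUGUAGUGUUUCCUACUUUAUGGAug
Mir223 is 110 bases long at chrX:96242817-96242926, in an exon of F630028O10Rik on the same strand, a transcript that GENCODE classes as antisense. Mir142 is 64 bases long at chr11:87756864-87756927, in an intron of the lincRNA Mir142hg, and Mir142b is annotated on the opposite strand of the same place. Reads named miR-142b were few, with 8 counts in all 36 libraries. Mir155 lies at chr16:84714140-84714204 in an exon of the lincRNA Mir155hg, and its other arm, miR-155-3p, had 41 counts and was at 0 in 31 libraries. In total the table holds 177404 reads of miR-223-3p, 5234 of miR-223-5p, 16917 of miR-142a-3p, 158649 of miR-142a-5p and 72568 of miR-155-5p.

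Library totals were 9066683 to 17714156 counts in eWAT and 7866583 to 18832842 in liver. Together the 5 arms made up 0.105% to 0.316% of the counts of an eWAT library and 0.0197% to 0.0565% of those of a liver library. The widest 95% Wilson interval of such a share was 0.0059 percentage points, which covers counting error only. Hepatocyte markers (miR-122, miR-192, miR-194 and miR-802 arms) summed to 518 to 3597 CPM (counts scaled to library size) in eWAT, against 613387 to 991845 in 16 liver libraries, so the tissue labels and these markers go together. A pair of liver libraries, HF replicate 6 and LF replicate 4, stood apart, and the authors' deposited log2 table for liver leaves out both. Their values fell outside the range of the other 16 liver libraries for 277 (57.9%) and 292 (61.1%) of the 478 miRNAs tested. Of these, 124 lay above and 153 below that range in HF replicate 6, and 112 above and 180 below in LF replicate 4. In eWAT, the 5 epithelial miRNAs (miR-200 family) summed to 40.0 to 108.9 CPM in HFLF and 58.1 to 96.5 in HF but reached 13511 in LF, where replicates 1 and 4 were high. The edgeR tests and the relations below were also run without these 2 libraries.

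In that pair of livers the 5 arms did not move together. On the CPM scale of the liver libraries alone, miR-223-3p stood at 474 CPM in HF replicate 6 and 387 in LF replicate 4, against 63.8 to 153 in the other 16. miR-142a-3p stood at 103 and 40.9 CPM, against 8.86 to 21.6, and miR-155-5p at 107 and 66.2 CPM, against 18.5 to 43.2. These 3 arms were therefore above every other liver in both libraries. miR-142a-5p, from the same hairpin as miR-142a-3p, was instead below every other liver, with 64.1 and 27.3 CPM against 88.1 to 183. miR-223-5p had 0 counts in HF replicate 6 and 4.21 CPM in LF replicate 4, against 0.692 to 5.71 CPM.

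The arm balance shows this most directly, since both arms are counted in the same library. HF replicate 6 held 1462 reads of miR-142a-3p and 912 of miR-142a-5p, and LF replicate 4 held 243 and 162. In the other 16 livers miR-142a-5p was read 6.84 to 17.1 times for each read of miR-142a-3p, with a median of 8.08, and in the 18 eWAT libraries 7.06 to 15.6 times, with a median of 11.03. The order of the arms was thus turned round in these 2 livers and in no other library. HF replicate 6 also held 6747 reads of miR-223-3p beside 0 of miR-223-5p, a ratio of 2249 if a floor of 3 counts is set in that library. Such a floor covers counting error only. Fewer miRNAs had a count in this pair, with 368 in HF replicate 6 and 316 in LF replicate 4, against 540 to 633 in the other 16 livers. The median was 32.04 reads of miR-223-3p per read of miR-223-5p in eWAT and 31.8 in the other 16 livers, with ranges of 23.2 to 46.1 and 14.9 to 124. Shifted arms were common in both libraries. Of 123 hairpins with both arms counted in liver, 91 (74.0%) in HF replicate 6 and 83 (67.5%) in LF replicate 4 lay outside the range of the other 16, while each of those 16 lay outside the range of the rest for 9 to 32 hairpins. A shift at least as large as that of miR-142a was seen in 43 hairpins in HF replicate 6 and 39 in LF replicate 4.

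**Figure D1:**
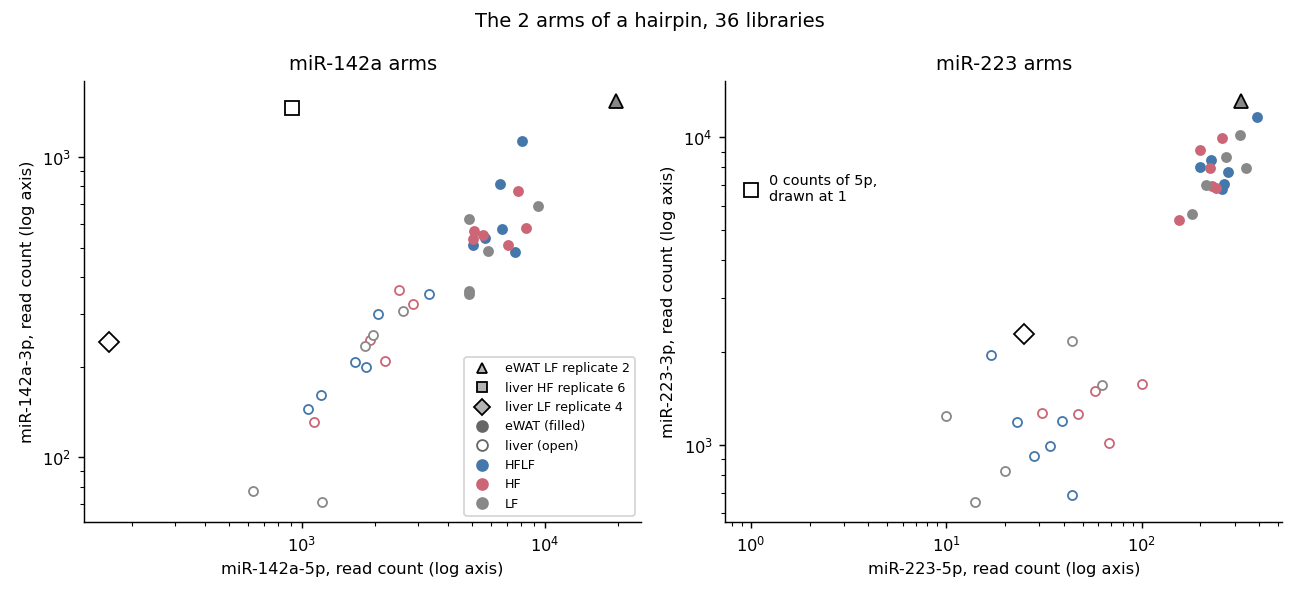
Read counts of the 3p arm against the 5p arm in each of 36 libraries on log axes, for miR-142a (left) and miR-223 (right). Filled symbols are eWAT and open symbols liver, and colours give the group. Liver HF replicate 6 (square) and LF replicate 4 (diamond) lie apart above the line of the other miR-142a points, with 1462 and 243 reads of the 3p arm beside 912 and 162 of the 5p arm. The 0 reads of miR-223-5p in HF replicate 6 are drawn at 1.

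The first question is how the arms differ between the tissues. miR-155-5p and both arms of miR-223 were higher in eWAT than in liver in all 3 groups, and miR-142a-5p in LF and HF, while miR-142a-3p was not called in any group. The test was edgeR's quasi-likelihood test on counts scaled by TMM over both tissues, with Benjamini-Hochberg adjustment over the 681 miRNAs tested and a threshold of 0.05. It called 3 of the 5 arms in HFLF, 4 in HF and 4 in LF, all higher in eWAT. Over all miRNAs tested 48.6% were called in HFLF, 49.6% in HF and 47.4% in LF, and 29.4%, 32% and 31.4% were called higher in eWAT. The median fold change of the 5 arms was 1.43, 1.12 and 1.11 on the log2 scale in these groups, beside a median over all miRNAs tested of 0.27, 0.48 and 0.60. The levels below are CPM on the scale of both tissues.

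miR-155-5p ran from 115 CPM to 406 in the 18 eWAT libraries, with a median of 159. In liver it ran from 25.9 to 65.9 CPM in 16 libraries, with a median of 42.9, and reached 116 in HF replicate 6 and 80.4 in LF replicate 4. All 18 eWAT libraries lay above those 16 livers, and 17 lay above all 18. The log2 fold change of eWAT over liver was 1.83 ± 0.30 in HFLF (± SE, n = 6 each; edgeR adjusted p = 4.1e-06), 1.59 ± 0.30 in HF (edgeR adjusted p = 3.29e-05) and 1.99 ± 0.30 in LF (edgeR adjusted p = 1.36e-06). Leaving out any 1 of the 12 libraries of a comparison kept each call, with edgeR adjusted p of at most 0.00139.

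miR-223-3p had the highest median of the 5 arms in eWAT, at 409.9 CPM, with a range of 317 to 569. In liver it ran from 94.7 to 249.6 CPM in 16 libraries, with a median of 145, and stood at 512 in HF replicate 6 and 469 in LF replicate 4. Every eWAT library lay above those 16 livers, but only 1 lay above all 18. eWAT over liver was 1.43 ± 0.29 in HFLF (edgeR adjusted p = 0.000104), 1.12 ± 0.29 in HF (edgeR adjusted p = 0.00144) and 0.95 ± 0.29 in LF (edgeR adjusted p = 0.00612). Without that pair of livers the values were 1.30 ± 0.15 in HFLF, 1.48 ± 0.16 in HF and 1.25 ± 0.16 in LF.

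miR-223-5p, the rarer arm, ran from 9.03 to 15.5 CPM in eWAT and from 0 to 9.40 in liver, with medians of 12.8 and 4.53. In 15 of 18 eWAT libraries it lay above every liver. The fold change was 1.63 ± 0.53 in HFLF (edgeR adjusted p = 0.0099), 1.25 ± 0.52 in HF (edgeR adjusted p = 0.0436) and 1.71 ± 0.53 in LF (edgeR adjusted p = 0.00724). The call in HF was fragile. It was lost when any 1 of 10 of the 12 HF libraries was left out (all 6 eWAT replicates and liver replicates 1 to 4), with edgeR adjusted p of up to 0.124. It was also lost without the low-count filter (1.30, edgeR adjusted p = 0.0667) and with the lines of a name summed (1.18, edgeR adjusted p = 0.0575).

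miR-142a-5p ran from 198 to 847 CPM in eWAT, with a median of 324. In liver it ran from 135 to 298 CPM in 16 libraries, with a median of 215, and stood at 69.2 in HF replicate 6 and 33.1 in LF replicate 4. In 13 of 18 eWAT libraries it lay above every liver. eWAT over liver was 0.45 ± 0.34 in HFLF (edgeR adjusted p = 0.282), 0.95 ± 0.34 in HF (edgeR adjusted p = 0.0190) and 1.11 ± 0.34 in LF (edgeR adjusted p = 0.00685). DESeq2 also called it in HFLF, at 0.70 (DESeq2 adjusted p = 0.0492). Part of this moved with single libraries. Without liver HF replicate 6 and LF replicate 4 the values were 0.32 ± 0.24 in HFLF, 0.59 ± 0.26 in HF, where the call was lost (edgeR adjusted p = 0.0533), and 0.82 ± 0.26 in LF, where it was kept (edgeR adjusted p = 0.00871). The call in LF was lost without eWAT LF replicate 2, the library with the highest miR-142a-5p, with 0.67 ± 0.32 (edgeR adjusted p = 0.083). The call in HF was lost without liver HF replicate 1, 3 or 5 or without eWAT HF replicate 3 or 5, with values of 0.67 to 0.81.

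miR-142a-3p ran from 17.0 to 66.8 CPM in eWAT and from 12.4 to 35.2 in 16 livers, with medians of 28.7 and 26.3. It reached 111 CPM in liver HF replicate 6 and 49.7 in LF replicate 4. The tissues overlapped, with 6 of 18 eWAT libraries above the 16 livers and none above all 18. eWAT over liver was 0.18 ± 0.37 in HFLF (edgeR adjusted p = 0.721), -0.24 ± 0.37 in HF (edgeR adjusted p = 0.627) and 0.19 ± 0.37 in LF (edgeR adjusted p = 0.677). The 95% intervals were -0.58 to 0.93, -0.99 to 0.51 and -0.56 to 0.95, and differences up to those sizes are not excluded. The 5p arm of the same hairpin was called in HF and LF, but the ratio of the 2 arms, tested below, did not pass in any group.

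These tissue differences depend on how libraries are scaled. With plain CPM the median of all miRNAs tested moved to 1.39 in HFLF, 1.66 in HF and 1.87 in LF, and all 5 arms were called higher in eWAT in each group. miR-142a-3p then stood at 1.31 in HFLF, 0.91 in HF and 1.52 in LF, and so turned its direction in HF. A change of scaling shifts all miRNAs of a comparison by about the same amount. Places relative to the median of all miRNAs therefore move little by construction, and they are no check on the scaling. miR-155-5p lay above that median by 1.56, 1.11 and 1.39 with TMM and by 1.59, 1.07 and 1.46 with plain CPM in HFLF, HF and LF. miR-223-3p lay above it by 1.16, 0.64 and 0.36 with TMM and by 1.16, 0.61 and 0.40 with plain CPM. miR-142a-3p lay at -0.10, -0.72 and -0.40 with TMM and at -0.07, -0.75 and -0.35 with plain CPM, below the median of all miRNAs under both.

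**Figure D2:**
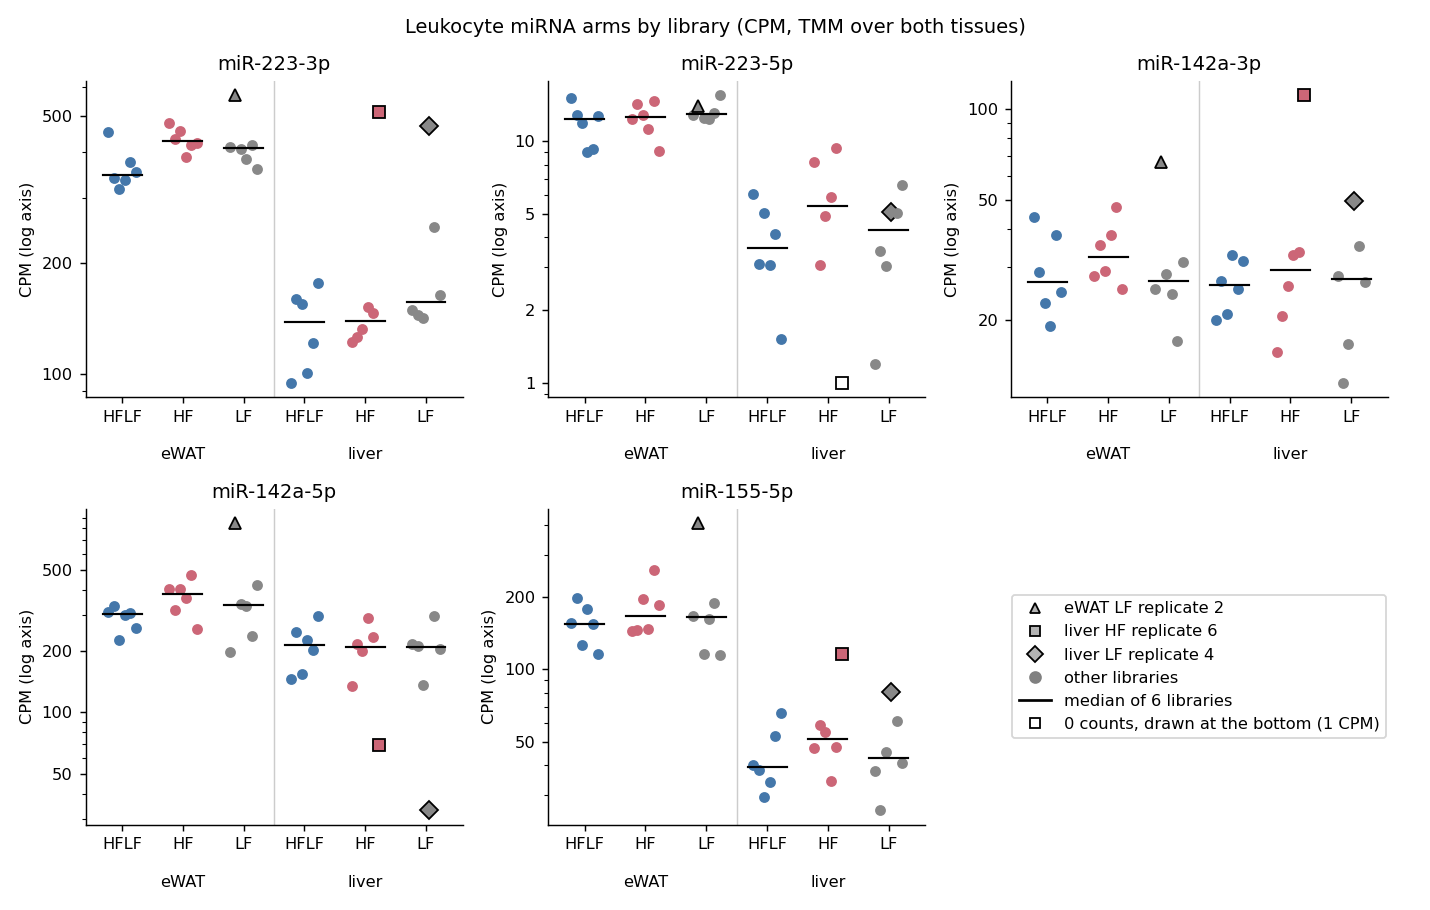
CPM of each arm by library on log axes, scaled by TMM over both tissues, with the groups of eWAT at the left and of liver at the right and lines at the medians of 6 libraries. All 18 eWAT libraries lie above 16 of the livers for miR-155-5p and miR-223-3p, while miR-142a-3p overlaps. Liver HF replicate 6 (square), liver LF replicate 4 (diamond) and eWAT LF replicate 2 (triangle) are marked, and the 0 of miR-223-5p is drawn at 1 CPM.

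**Figure D3:**
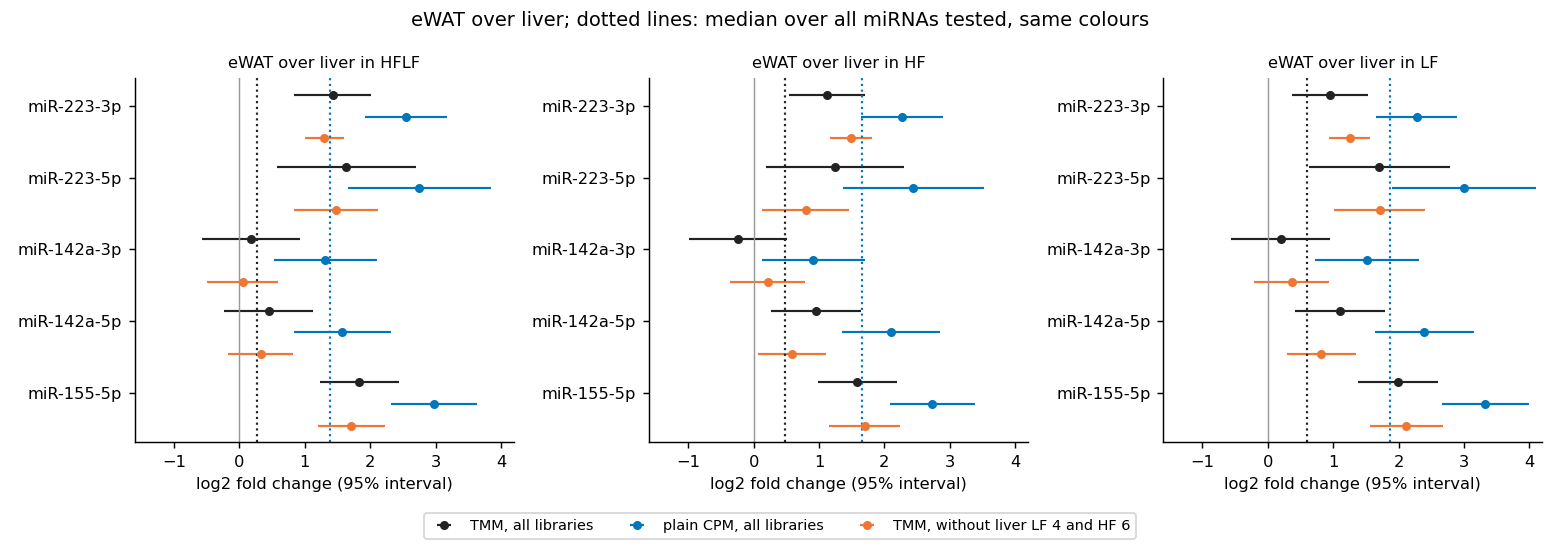
Log2 fold change of eWAT over liver in HFLF, HF and LF for each arm, with 95% intervals from edgeR. Black is TMM with all libraries, blue is plain CPM, orange leaves out liver LF replicate 4 and HF replicate 6, and dotted lines mark the median of all miRNAs tested. miR-155-5p lies to the right of the median in each panel, and miR-142a-3p lies to its left under both scalings with all libraries.

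Across the 6 groups, the order of median levels was the same at the top for 4 arms, with eWAT HF first for miR-223-3p (427 CPM), miR-142a-3p (32.2), miR-142a-5p (382) and miR-155-5p (166), and eWAT LF first for miR-223-5p (13.0). Liver HFLF was last for miR-223-3p (138 CPM), miR-223-5p (3.62), miR-142a-3p (26.1) and miR-155-5p (39.2), and liver HF for miR-142a-5p (208). Neighbours in these orders overlapped in range in all cases but 1. The exception was miR-155-5p, whose lowest eWAT HFLF library (115.922 CPM) lay just above its highest liver HF library (115.898).

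Ratios of raw counts within a library need no scaling, and 3 of them were compared in 9 ways each by a 2-sided exact permutation test, adjusted over the 27 tests. That test takes the libraries of a comparison as unpaired. The ratio of miR-223-3p, the myeloid arm, to miR-142a-3p, the general leukocyte arm, was higher in eWAT than in liver. It ran from 8.52 to 24.5 in the 18 eWAT libraries, with a median of 14.1, and from 3.06 to 11.6 in 16 livers, with a median of 5.76. As mean log2 ratios the values were 3.66 ± 0.32 in eWAT and 2.34 ± 0.43 in liver in HFLF (± SD, n = 6 each), 3.70 ± 0.40 and 2.41 ± 0.31 in HF, and 3.84 ± 0.51 and 2.95 ± 0.42 in LF. The differences were 1.32 ± 0.22 in HFLF and 1.29 ± 0.21 in HF (± SE; exact p = 0.00216 for each, the smallest that 6 against 6 allows, adjusted p = 0.0292). In LF the difference was 0.89 ± 0.27 (exact p = 0.0108, adjusted p = 0.0974) and did not pass. Without the pair of livers that stood apart the differences were 1.25 in HF and 0.95 in LF, and the same 2 groups passed, HFLF and HF. A ratio of read counts is not a ratio of molecules, since sequences can be captured unequally. The ratio to miR-142a-5p, the arm with more reads in most libraries, was not tested. By edgeR, eWAT over liver was 0.45, 0.95 and 1.11 for miR-142a-5p in HFLF, HF and LF. For miR-223-3p it was 1.43, 1.12 and 0.95. A reading as myeloid over general leukocyte miRNA thus depends on the miR-142a arm taken.

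In liver the same ratio was lower in HFLF and in HF than in LF, by -0.61 ± 0.24 and -0.54 ± 0.21, but neither passed (exact p = 0.0325 for each, adjusted p = 0.146). The other 2 ratios did not pass in any comparison with all libraries. The log2 ratio of miR-142a-3p to miR-142a-5p was lower in eWAT than in liver by -0.34 ± 0.18 in HFLF (exact p = 0.0779), -0.997 ± 0.64 in HF (exact p = 0.0216) and -1.002 ± 0.67 in LF (exact p = 0.0649), with adjusted p = 0.234, 0.146 and 0.219. Without liver HF replicate 6 and LF replicate 4 the values in HF and LF were -0.37 in each, and without liver HF replicate 2 the value in HF passed, with -1.18 (exact permutation test, adjusted p = 0.0195). The log2 ratio of miR-223-3p to miR-223-5p differed between tissues by -0.28 ± 0.41 in HFLF, -0.93 ± 1.55 in HF and -0.80 ± 0.36 in LF (exact p = 0.574, 0.968 and 0.0455, adjusted p = 0.906, 0.987 and 0.175). Here the 0 count of liver HF replicate 6 entered with a pseudocount of 0.5. Without that library the value in HF was 0.60, in the other direction, and without liver LF replicate 6 the value in LF passed, with -1.02 (exact permutation test, adjusted p = 0.0195).

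**Figure D4:**
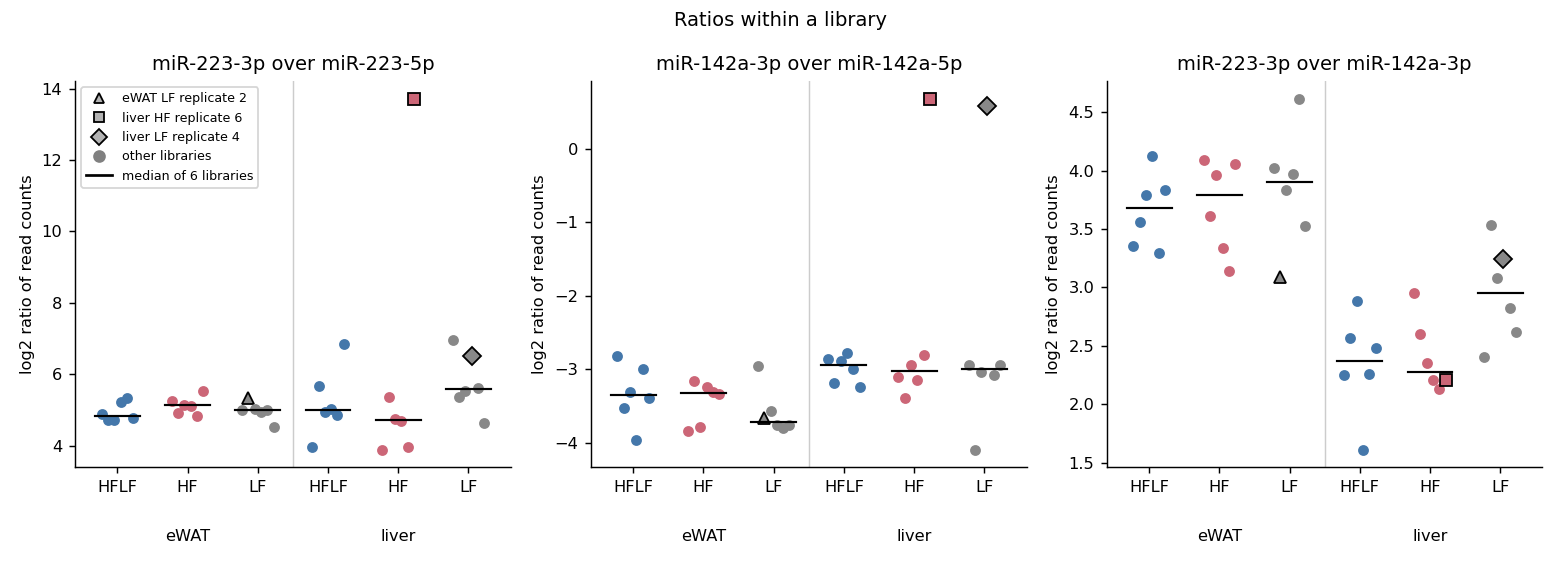
Log2 ratios of read counts within each library for the arms of miR-223, the arms of miR-142a and miR-223-3p over miR-142a-3p, by group, with lines at the medians of 6 libraries. At the right, the medians of the 3 eWAT groups lie above those of the 3 liver groups. In the middle, liver HF replicate 6 (0.68) and liver LF replicate 4 (0.58) are the 2 libraries above 0.

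The second question is whether the arms differ between the diet groups of a tissue. In liver none of the 5 arms was called in HFLF over LF, HFLF over HF or HF over LF by edgeR (each adjusted p at least 0.989). The background was equally empty, with 0% of 478 miRNAs called in each comparison. At an unadjusted p under 0.05 there were 0 of the 5 arms in each, and 14, 5 and 16 of all miRNAs. DESeq2 and limma-trend also called 0 of the 5. The values below are CPM on the scale of liver alone, as lowest, median and highest of 6 libraries.

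miR-223-3p stood at 63.8, 84.3 and 107 CPM in HFLF, at 79.8, 88.8 and 474 in HF and at 86.1, 102 and 387 in LF. The groups overlapped, and the top values of HF and LF are replicate 6 and replicate 4. HFLF over LF was -0.84 ± 0.45, HFLF over HF -0.82 ± 0.45 and HF over LF -0.018 ± 0.45. Without those 2 libraries the same differences were -0.33 ± 0.15, -0.019 ± 0.15 and -0.31 ± 0.16, and none was called (edgeR adjusted p = 0.646, 0.986 and 0.741). The largest of them, HFLF over LF, then had a 95% interval of -0.64 to -0.01 and an unadjusted p of 0.0413 by edgeR.

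miR-142a-3p stood at 13.7, 16.2 and 20.9 CPM in HFLF, at 10.9, 17.4 and 103 in HF and at 8.86, 16.3 and 40.9 in LF. The 3 medians lay within the spread of each group. HFLF over HF was -0.88 ± 0.48, HF over LF 0.68 ± 0.48 and HFLF over LF -0.19 ± 0.48. Without the pair these were 0.037 ± 0.23, 0.13 ± 0.24 and 0.16 ± 0.23. The sizes seen with all libraries were therefore not kept, and 2 of the 3 turned direction.

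miR-155-5p stood at 19.2, 28.1 and 35.5 CPM in HFLF, at 19.96, 32.8 and 107 in HF and at 18.5, 27.1 and 66.2 in LF. HFLF over HF was -0.68 ± 0.37, with -0.20 ± 0.21 without the pair, and HF over LF was 0.42 ± 0.37, with 0.24 ± 0.22 without it. HFLF over LF was -0.27 ± 0.37, with 0.046 ± 0.21 without it. The groups overlapped throughout.

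miR-142a-5p stood at 101, 133 and 166 CPM in HFLF, at 64.1, 131 and 170.1 in HF and at 27.3, 126 and 183 in LF, the lowest of HF and LF being replicates 6 and 4. Its differences were 0.20 ± 0.32 for HFLF over LF, 0.10 ± 0.32 for HFLF over HF and 0.10 ± 0.32 for HF over LF. Without the pair all 3 lay between -0.032 and 0.017 and their 95% intervals between -0.41 and 0.41. miR-223-5p stood at 0.819, 2.30 and 4.61 CPM in HFLF, at 0, 3.20 and 5.71 in HF and at 0.692, 2.79 and 4.21 in LF, and its 3 differences had standard errors of 0.73.

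In eWAT the 5 arms were again not called in any comparison by edgeR, where 0% of 638 miRNAs were called in HFLF over LF, HFLF over HF and HF over LF. At an unadjusted p under 0.05 there were 0, 1 and 0 of the 5 arms, and 98, 21 and 49 of all miRNAs. DESeq2 called 31, 0 and 16 of all miRNAs but 0 of the 5 arms, and limma-trend called 0 of either. The empty background of HFLF over LF rested on single libraries, since edgeR called 12, 15 and 17 miRNAs, none of them one of the 5 arms, without LF replicate 2, 5 or 6. CPM below are on the scale of eWAT alone.

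miR-223-3p stood at 481, 529 and 661 CPM in HFLF, at 595, 659 and 725 in HF and at 526, 613 and 891 in LF. The HFLF libraries were low on the whole but reached into the range of both other groups. HFLF over HF was -0.25 ± 0.12, with a 95% interval of -0.49 to -0.01 (edgeR adjusted p = 0.997), and this is the single arm and comparison with an unadjusted edgeR p under 0.05. HFLF over LF was -0.24 ± 0.12, with a 95% interval of -0.48 to 0.0031 (edgeR adjusted p = 0.325). Both comparisons share the HFLF libraries. HF over LF was 0.01 ± 0.12. miR-223-5p stood at 13.9, 18.6 and 22.2 CPM in HFLF, at 14.3, 18.8 and 21.7 in HF and at 18.9, 19.6 and 22.7 in LF, with differences from -0.18 to -0.06.

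The remaining arms were dominated by LF replicate 2. miR-142a-5p stood at 344, 457 and 495 CPM in HFLF, at 402, 575 and 679.7 in HF and at 292, 517 and 1325 in LF. miR-155-5p stood at 178, 233 and 295 CPM in HFLF, at 219, 257 and 372 in HF and at 168, 250.3 and 636 in LF. miR-142a-3p stood at 29.5, 40.5 and 64.5 CPM in HFLF, at 39.6, 48.4 and 68.2 in HF and at 25.8, 40.7 and 104 in LF. In each case LF held both the lowest and the highest library of the tissue, and the highest was replicate 2. With all libraries HFLF over LF was below 0 for all 5 arms, from -0.47 ± 0.27 for miR-142a-5p to -0.13 ± 0.28 for miR-142a-3p, beside a median of -0.04 over all 638 miRNAs. Without LF replicate 2 the values were -0.12 ± 0.17 for miR-142a-5p, 0.0020 ± 0.18 for miR-155-5p and 0.19 ± 0.22 for miR-142a-3p, while miR-223-3p was at -0.17 ± 0.10 and miR-223-5p at -0.21 ± 0.16. HF over LF lay between -0.13 and 0.05 for these 3 arms with all libraries. Without LF replicate 2 it was 0.39 ± 0.22 for miR-142a-3p, 0.23 ± 0.17 for miR-142a-5p and 0.22 ± 0.18 for miR-155-5p. Without the epithelial-rich LF replicates 1 and 4, HFLF over LF was -0.69 ± 0.26 for miR-142a-5p and -0.30 ± 0.12 for miR-223-3p, and neither was called (edgeR adjusted p = 0.703 for both).

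eWAT LF replicate 2 held 2.75 times the median of the other 17 eWAT libraries for miR-142a-5p, 2.67 times for miR-155-5p, 2.43 times for miR-142a-3p and 1.48 times for miR-223-3p, and was the highest of 18 for all 4. For miR-223-5p it was 1.15 times the median and 3rd of 18. Of all 638 miRNAs it was the highest library for 45 (7.05%), while the other 17 libraries were the highest for 17 to 96. Some lymphocyte miRNAs were high in the same library. miR-150-5p, a miRNA of mature B and T cells, was at 2.20 times the median of the others. miR-342-3p was at 1.88 times and 2nd of 18, and miR-181a-5p at 1.18 times. On the CPM scale of both tissues, the summed level of the 8 lymphocyte miRNAs (miR-150, miR-342 and miR-181 arms) was the highest of 18 at 5133 CPM, where the lowest eWAT library had 3031. Most of this lymphocyte sum was miR-181a-5p, at 1479 to 2254 CPM in eWAT, and miR-150-5p, at 532 to 2107. The 10 other myeloid miRNAs summed on that scale to 38166 CPM, which ranked 12 of 18 in a range of 31067 to 51551. Most of that sum was miR-21a-5p, at 29426 to 49642 CPM in eWAT, and the rank says little on the other members. A member of that list, miR-146a-5p, was at 1.87 times the median of the other libraries and the highest of 18. On the scale of both tissues, the sums of LF replicate 2 for the adipose and smooth muscle list (80473 CPM), the hepatocyte list (518 CPM) and the fibroblast list (3095 CPM) were the lowest of 18. The part of these in the values of the 5 arms was not tested.

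**Figure D5:**
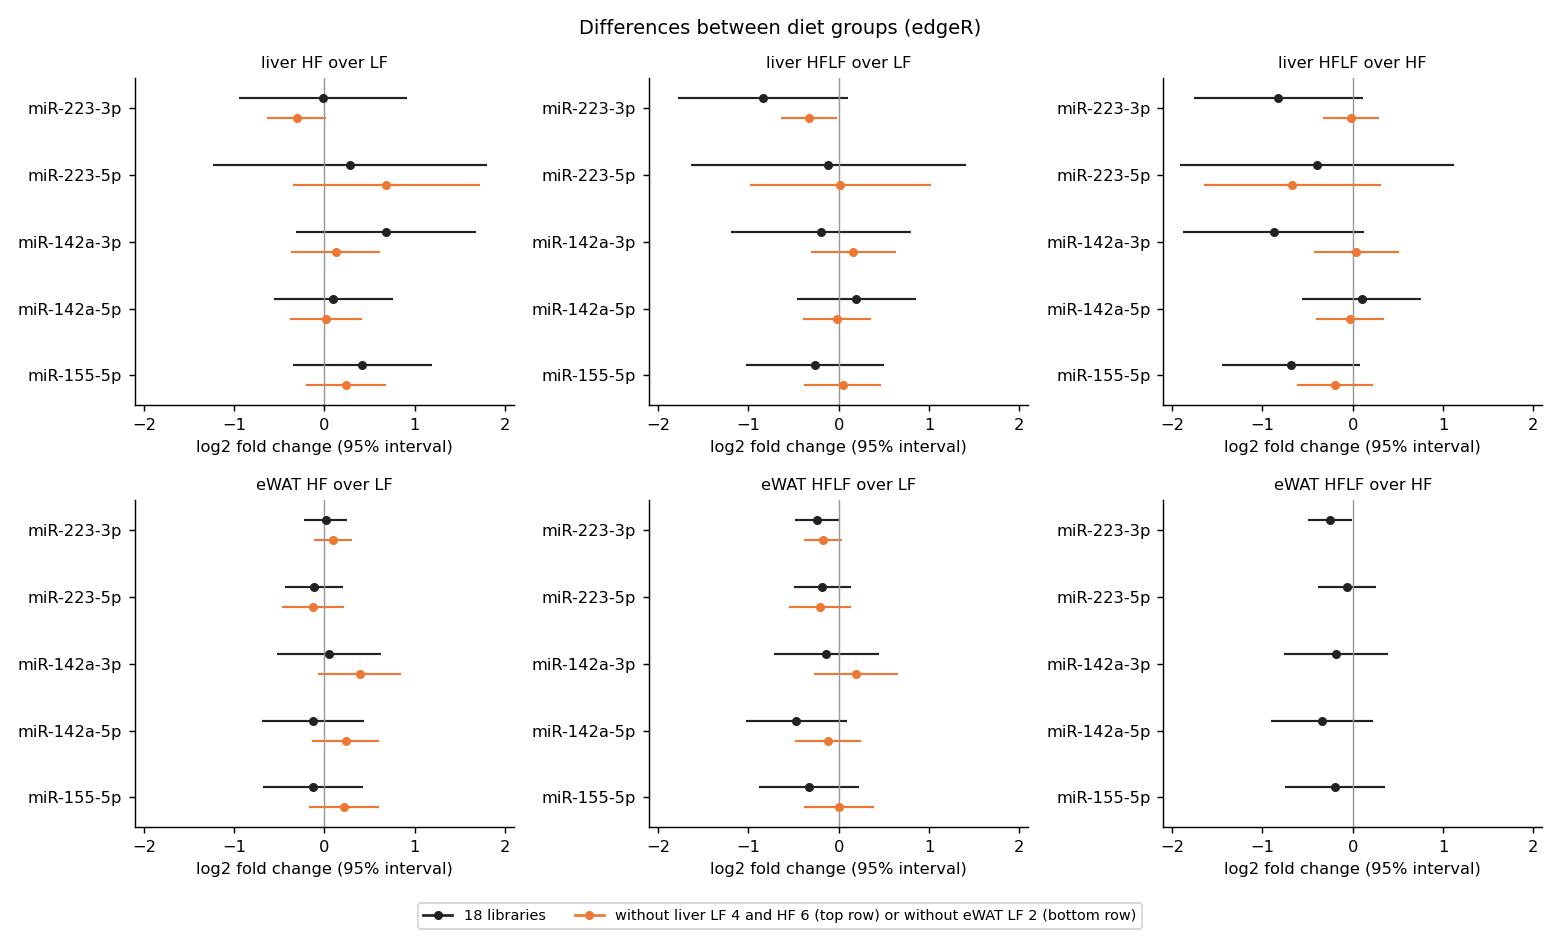
Log2 differences between diet groups for each arm with 95% intervals from edgeR, for liver in the top row and eWAT in the bottom row. Black uses all 18 libraries, and orange leaves out liver LF replicate 4 and HF replicate 6 or eWAT LF replicate 2. The orange liver intervals are narrower and nearer 0 for miR-142a-3p and miR-155-5p, as for miR-142a-3p in HFLF over HF, at 0.037 in orange and -0.88 in black.

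Whether the diet differences differ between the tissues was tested as an interaction. None of the 5 arms was called by edgeR for the HF or for the HFLF effect, where 2.5% and 1.91% of 681 miRNAs were called (1.17% and 1.62% of the 681 lower and 1.32% and 0.294% higher). All 5 epithelial miRNAs were among those called lower for both effects. Without the epithelial-rich eWAT LF replicates 1 and 4, 0 of 746 miRNAs were called for either effect. With limma-trend and with the replicate block 0 of 681 were called. The effect of HFLF in eWAT minus that in liver ran from -0.66 for miR-142a-5p to 0.48 for miR-223-3p (smallest edgeR adjusted p = 0.714), and that of HF from -0.46 for miR-223-5p to 0.17 for miR-223-3p (smallest edgeR adjusted p = 0.913). No arm had an unadjusted p under 0.05, and DESeq2 and limma-trend called 0 of the arms they gave an adjusted p for.

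Other miRNAs of the same cells were taken from 2 lists. Of 10 other myeloid miRNAs, 7 were tested, and miR-147-3p, miR-155-3p and miR-142b were too low. In eWAT over liver, 1 of the 7 was higher in each group, miR-146b-5p, a brake on Toll-like receptor signalling, at 3.32 in HFLF, 4.07 in HF and 3.49 in LF. miR-21a-5p, which is made in macrophages and in many other cells, was lower at -1.38, -1.25 and -1.37, and miR-511-3p, from the intron of the macrophage receptor gene Mrc1, was lower in HF at -1.27. Over all miRNAs tested 29.4%, 32% and 31.4% were called higher and 19.2%, 17.6% and 16% lower in HFLF, HF and LF. The median of the 7 was -0.22 in HFLF, 0.05 in HF and 0.23 in LF, beside 0.27, 0.48 and 0.60 over all miRNAs. Of the 8 lymphocyte miRNAs, 4 were higher in HFLF, 6 in HF and 6 in LF and none was lower, where 29.4%, 32% and 31.4% of all miRNAs tested were called higher, and the medians of the list were 1.23, 1.77 and 1.77. miR-150-5p stood at 2.87, 3.18 and 3.06 and miR-181a-5p, which tunes T cell receptor signalling, at 1.91, 2.01 and 1.82.

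No member of either list was called between diet groups by edgeR. On the CPM scale of both tissues the other myeloid list summed to 31067 to 51551 CPM in eWAT, against 60383 to 146782 in 16 livers, with 79474 in liver HF replicate 6 and 83100.1 in LF replicate 4. Most of this sum was miR-21a-5p, at 29426 to 49642 CPM in eWAT and 59799 to 146189 in liver. The sum therefore says little on the other members of that list. The lymphocyte list summed to more in eWAT, with 3031 to 5133 CPM, against 641 to 1134 in 16 livers, with 624 in liver HF replicate 6 and 914 in LF replicate 4. The erythroid list (miR-451a, miR-144 and miR-486 arms), which marks red cells, summed to 1730 to 5783 CPM in eWAT and 2237 to 4592 in 16 livers. Between tissues 0 of its 5 members were called in any group, where 48.6% of all miRNAs tested were called in HFLF, 49.6% in HF and 47.4% in LF. None of the erythroid members was at 0 in any library. The part of residual blood in the levels of the 5 arms was not tested.

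Whether the arms vary together from library to library was examined in 10 relations, 5 in each tissue, as Pearson's r and Spearman's rho of log2 CPM with permutation p adjusted over the 10. The 2 arms of miR-142a went together in eWAT, with r = 0.75 (permutation p = 0.00071, adjusted p = 0.0050) and rho = 0.66 (permutation p = 0.00332, adjusted p = 0.0332) over 18 libraries. Without LF replicates 2 and 5, the farthest from the median, r was 0.47. In eWAT miR-223-3p was related to miR-155-5p with r = 0.59 (permutation p = 0.0151, adjusted p = 0.0302) and to miR-142a-3p with r = 0.55 (permutation p = 0.0190, adjusted p = 0.0316). The ranks showed less, with rho = 0.27 and 0.31 (adjusted p = 0.508 for both). Without LF replicate 2 and HFLF replicate 3 these r fell to 0.10 and 0.16, so both relations rest on those libraries. For miR-142a-3p with miR-155-5p r was 0.49 (adjusted p = 0.0636), and for the 2 arms of miR-223 it was 0.27 (adjusted p = 0.270).

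In liver the pair of libraries that stood apart forms a cluster of its own, and relations are given over the other 16 only. The arms of miR-142a had r = 0.58 (permutation p = 0.0186, adjusted p = 0.0600) and rho = 0.68 (permutation p = 0.0053, adjusted p = 0.0361), and r was 0.80 without LF replicates 2 and 3. The other 4 relations had r between 0.01 and 0.15 (adjusted p at least 0.818).

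The miRNAs most like an arm in pattern were named by the highest Pearson r over the 18 libraries of a tissue, out of 633 others in eWAT and 473 in liver. For miR-155-5p in eWAT they were miR-146a-5p (r = 0.80), an NF-κB-induced miRNA of activated immune cells, then miR-15b-3p (0.79), miR-3964 (0.69), miR-501-5p (0.67) and miR-466i-5p (0.67). For miR-223-3p in eWAT they were miR-8114 and miR-342-3p (0.64 each), miR-130b-5p (0.63), miR-361-3p (0.62) and miR-15b-3p (0.56). For miR-142a-3p in eWAT they were miR-3060-3p (0.72), miR-877-3p (0.70), miR-299a-5p (0.66), miR-450a-2-3p (0.62) and miR-494-3p (0.60). Several of these were low, as miR-450a-2-3p (mean 0.68 CPM on the scale of eWAT alone), miR-877-3p (3.32), miR-3964 (3.46) and miR-3060-3p (3.90). The eWAT neighbours were not taken without LF replicate 2, the highest of 18 for both miR-155-5p and miR-146a-5p. In liver the closest were miR-122-3p (0.90) for miR-223-3p, miR-16-5p (0.93) for miR-142a-3p and miR-29b-3p (0.88) for miR-155-5p. Without the pair of livers none of these 3 was among the closest 5, which were then led by miR-3064-5p (0.64), miR-152-3p (0.73) and miR-466i-5p (0.74). These r are descriptions, over libraries that share their tissue and scaling.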

How the data were processed

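The members and lists were chosen with earlier results of these data known. The submitters' processing notes name cutadapt, Bowtie and the GRCm38.p6 build; no version, setting or use of strand is stated in those notes. The table the authors deposited gives read counts for 36 libraries in 2118 lines, each a mature miRNA from 1 precursor. The deposited CPM are the same counts scaled to each column's total. In log2 CPM, the authors' deposited tables cover 16 liver libraries (171 miRNAs) and 18 eWAT libraries (180 miRNAs), and include 3 of the 5 arms. Only the counts were used in tests. Table columns name tissue, group and number by letters, read as L for liver, W for eWAT, C for LF, H for HF and R for HFLF.

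Where a mature name had several lines, the one with most reads was kept. The main test was that of edgeR 4.0.16, run in R 4.3.3 (TMM factors, filterByExpr with minimum count 10 and total 15, robust quasi-likelihood F test, Benjamini-Hochberg adjustment, threshold 0.05). Each tissue was fitted alone for diet groups and both together for tissues and interactions, so CPM differ between the 2 scales. All 5 arms passed the filter in every fit. DESeq2 1.42.0 and limma 3.58.1 were alternatives. Log2 CPM for relations used a prior count of 2, and permutation p 100000 resamples. Ratios used all 924 assignments of 6 against 6. The named miRNAs are the 5 arms, the lists and, for 3 arms, the 5 closest in r. No 2 replicates agreed within sampling noise (lowest chi-square per degree of freedom 61.8). Sequences are from the RefSeq table, where all 5 arms matched, and host genes from the GENCODE annotation. The edgeR fit was also run on simulated counts with known fold changes. Apart from those changes all simulated libraries shared the same mean shares and spread. The run therefore cannot bear on libraries that stand apart or on the scaling between tissues. Other settings tried were RLE factors, plain CPM, no filter, summed lines, a table without miR-122-5p and miR-143-3p, a replicate block and leaving out libraries. Precision is limited for miR-223-5p in liver, where libraries held few reads of this arm.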

Additional observations from a re-analysis of the deposited data

Results flagged for a closer look

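In 12 of 48 groups of 6 libraries (5 arms and 3 ratios in 6 groups each) the top library lay farther from the next, as a share of the group's range, than Dixon's 95% critical value. Chance alone flags about 1 in 20 groups. All 12 come from 4 libraries.

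Liver HF replicate 6 was high for miR-223-3p (474 CPM), miR-142a-3p (103 CPM) and miR-155-5p (107 CPM), for the log2 ratio of miR-223-3p to miR-223-5p (13.7, with the 0 count at 0.5) and for that of miR-142a-3p to miR-142a-5p (0.68). Liver LF replicate 4 was high for miR-223-3p (387 CPM) and for the log2 ratio of the miR-142a arms (0.58). eWAT LF replicate 2 was high for miR-223-3p (891 CPM), miR-142a-3p (104 CPM), miR-142a-5p (1325 CPM) and miR-155-5p (636 CPM). eWAT LF replicate 1 was high for the log2 ratio of miR-142a-3p to miR-142a-5p (-2.96). That library held 625 reads of the 3p arm and 4876 of the 5p arm.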

How the results depend on the processing

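Counts of called arms between diet groups and for interactions were 0 under every alternative run. Between tissues they kept within 1.5 times, apart from HFLF with plain CPM, where 5 of 5 were called instead of 3, and HF, where leaving out 1 library gave 2 to 4 instead of 4 (2 without liver HF replicate 1 or 3 or eWAT HF replicate 3 or 5). DESeq2 gave miR-223-3p no adjusted p between tissues. By Pearson's r, 6 of the 10 relations passed with all libraries, 3 of them through the pair of livers, 9 passed with plain CPM, and 1 passed without that pair and eWAT LF replicates 1 and 4, a choice made after seeing the data. By Spearman's rho 1 of 10 passed with all libraries. With plain CPM the relation of miR-142a-3p to miR-155-5p in eWAT passed (r = 0.57, permutation test, adjusted p = 0.0245), as did that of the miR-223 arms (r = 0.49, permutation test, adjusted p = 0.0448).

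Reversals concern differences not called with all libraries. miR-142a-3p in eWAT over liver in HF, -0.24 with all libraries, was 0.91 with plain CPM, where it was called, 0.061 with limma-trend, 0.12 with the replicate block, 0.22 without liver LF 4 and HF 6, 0.42 without these and eWAT LF 1 and 4, and -0.64 to 0.41 with 1 library left out. Without the pair of livers, HFLF over LF in liver was 0.017 for miR-223-5p, 0.16 for miR-142a-3p, -0.015 for miR-142a-5p and 0.046 for miR-155-5p, and HFLF over HF was 0.037 for miR-142a-3p and -0.032 for miR-142a-5p. With plain CPM liver HF over LF was 0.016 for miR-223-3p, and HFLF over LF was 0.039 for miR-223-5p and 0.041 for miR-142a-3p. With no filter liver HF over LF was 0.081 for miR-223-3p. With limma-trend miR-223-5p in liver was -0.17 for HF over LF and 0.087 for HFLF over HF, and in eWAT HF over LF was 0.034 for miR-142a-5p and 0.0028 for miR-155-5p. In eWAT HF over LF miR-223-3p was -2.56e-05 with RLE factors, -0.031 with no filter, -0.045 with summed lines and -0.027 without eWAT LF 1 and 4, where miR-142a-3p was -0.084.

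With 1 library left out, eWAT HF over LF ran from -0.10 to 0.39 for miR-142a-3p, -0.31 to 0.23 for miR-142a-5p, -0.27 to 0.22 for miR-155-5p and -0.069 to 0.090 for miR-223-3p, and HFLF over LF from -0.30 to 0.19 for miR-142a-3p and -0.48 to 0.0020 for miR-155-5p. In liver HF over LF ran from -0.21 to 0.99 for miR-142a-3p, -0.12 to 0.27 for miR-142a-5p, -0.053 to 0.70 for miR-155-5p and -0.80 to 0.45 for miR-223-3p. HFLF over LF in liver ran from -0.34 to 0.17 for miR-142a-3p, -0.015 to 0.36 for miR-142a-5p, -0.39 to 0.046 for miR-155-5p and -0.36 to 0.071 for miR-223-5p, and HFLF over HF from -1.04 to 0.017 for miR-142a-3p and -0.055 to 0.20 for miR-142a-5p. eWAT over liver for miR-142a-3p ran from -0.21 to 0.45 in LF and -0.051 to 0.23 in HFLF. The log2 ratio of miR-223-3p to miR-223-5p in eWAT over liver ran from -1.36 to 0.60 in HF and -0.53 to 0.048 in HFLF, and was 0.60 in HF without the pair of livers. The cause was not tested.

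Same-numbered libraries showed little sign of pairing in their counts. Their deviations correlated over 0.1 in 0 to 2 of 6 pairs of diet groups and 1 of 18 pairs of tissues. Low correlation between different tissues cannot exclude that liver and eWAT libraries of a group and number came from the same mouse. With the replicate number as a block the counts of called arms were unchanged (3 in HFLF, 4 in HF and 4 in LF between tissues), and miR-223-5p in liver HF over LF was -0.13 and miR-155-5p in eWAT HF over LF 0.015.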
